A study of Mus musculus with 56 samples.

Results

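Visceral adipose tissue (VAT) of mice on nighttime-restricted feeding (NRF) was compared here between mid-feeding, at ZT20, and mid-fasting, at ZT8. ZT is the zeitgeber time in hours, counted from lights on at ZT0, with lights off at ZT12. The 8 libraries of these 2 groups, 4 at each time point, were chosen by regimen and time point from the 56 libraries of the VAT series, and each library came from a single mouse. All mice of the series were female C57BL/6J, 9 weeks old, kept on a 12 h light and 12 h dark cycle, and had spent 7 days on their feeding regimen after a period of free feeding. Under NRF, food was offered during the dark hours, and under daytime-restricted feeding (DRF) during the light hours. The mice of ZT20 had therefore been in their feeding window for 8 h, and those of ZT8 in their fasting window for 8 h. Both groups carried the same genotype and the same regimen. They lay 12 h apart on the clock, so that feeding, the dark phase and the time of day changed together and cannot be told apart in this comparison. RNA was measured by poly(A) RNA sequencing of bulk tissue.

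Adipose tissue stores fuel during feeding and releases it during fasting. With food, insulin drives glucose into adipocytes, fatty acids are made from it or taken up from the blood and are esterified to triglyceride, and lipolysis is held back. In fasting, triglyceride is hydrolysed, fatty acids leave the cell, and part of them is esterified again on glycerol made by glyceroneogenesis. The molecular clock in the same cells is a transcription loop. BMAL1 with CLOCK or NPAS2 activates the Per, Cry, Nr1d and Dbp genes through E-boxes, PER and CRY proteins block this activity, and NR1D1 and NR1D2 repress Arntl and Nfil3 through ROR elements.

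Levels are given as CPM (counts per M reads), with the library size that the deposited values imply. Differences are ZT20 minus ZT8 on log2(CPM + 1) and are given as value ± standard error (SE), so that every value beside an adjusted p is such a log2 difference. A gene was called when the limma test across all genes gave a Benjamini-Hochberg adjusted p under 0.05. Values of different genes were not compared, because CPM is not per length. In bulk tissue, fewer cells of a type and less RNA per cell cannot be told apart.

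Between 35196391 and 40966831 reads fell on genes in these 8 libraries. The 8 adipocyte markers were abundant in every library, with summed levels of 31610 to 42750 CPM at ZT8 and 28810 to 34010 CPM at ZT20. Replicate 4 of ZT8 stood apart by skeletal muscle genes. The 11 muscle markers found in the table summed to 29.3, 17.3, 31.3 and 679.7 CPM in the 4 libraries of ZT8, and to 30.1, 41.3, 113.4 and 36.4 CPM at ZT20. Results were therefore repeated without this library. Macrophage, lymphocyte and red cell markers were highest in replicate 2 of ZT8, where macrophage markers summed to 1876 CPM against 947 to 1191 CPM in the other 7 libraries. Red cell and neutrophil markers summed to 286 to 747 CPM at ZT8 and to 225 to 344 CPM at ZT20, and 3 of the 5 tested were lower at ZT20 (5 with total reads as the library size and 1 without replicates 2 and 4 of ZT8). Over all genes tested, 16.1% were lower. The 4 ovary markers summed to 13.1 to 20.1 CPM at ZT8 and to 7.58 to 8.92 CPM at ZT20 without overlap. Liver markers, mostly Alb, summed to 15.1 to 21.3 CPM and to 16.9 to 40.1 CPM. Pancreas markers were at or near 0 in every library, with sums of at most 0.106 CPM. The part of these cell types in the results below was not tested.

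Of 14234 genes tested, 2955 were higher at ZT20 and 2290 were lower, which is 20.8% and 16.1% of the genes and 36.8% in both directions. The 4 values of ZT20 lay wholly above or wholly below those of ZT8 for 5088 genes. Without replicate 4 of ZT8, 2590 genes (18.2%) were higher and 1829 (12.9%) were lower. Of the calls made with all libraries, 2476 of the higher and 1750 of the lower genes remained. The median difference over all genes was 0.015. With total reads as the library size, this median fell by 0.11 and the split turned to 2073 higher and 3315 lower genes. The mice of ZT8 varied more than those of ZT20. The median SD of a gene was 0.18 at ZT8 and 0.12 at ZT20 on log2(CPM + 1), and 73.0% of the genes had the larger SD at ZT8.

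The largest fall was that of Nr1d1, which encodes the clock repressor REV-ERBα (chr11:98767932-98775333, GRCm38). Its level was 244, 296, 229 and 249 CPM at ZT8 and 4.41, 4.59, 4.82 and 4.11 CPM at ZT20, and all mice of a group were close to each other. Nr1d1 overlaps the end of Thra on the other strand, and whether reads were counted by strand is not given in the sources used here. The mean at ZT8 was 56.7-fold that at ZT20, with a log2 difference of -5.54 ± 0.09 (adjusted p = 2.41e-10). Next came Pck1 (chr2:173153048-173159273), which encodes the cytosolic phosphoenolpyruvate carboxykinase of glyceroneogenesis, with 2004, 2901, 932 and 3276 CPM at ZT8 and 65.8, 49.9, 39.4 and 73.3 CPM at ZT20. Replicate 3 had the lowest Pck1 level of the ZT8 mice and was still far above every mouse of ZT20, and the difference was -5.18 ± 0.35 (adjusted p = 1.25e-05). Dbp and Nr1d2, described with the clock genes, followed. Peg3 and Zim1, imprinted neighbours on chromosome 7 that encode zinc finger proteins, fell together by 3.22 and 2.77 on the log2 scale. Peg3 was at 135, 162, 47.9 and 159.7 CPM at ZT8 and 11.3, 8.09, 12.6 and 13.9 CPM at ZT20, again lowest at ZT8 in replicate 3. Also among the 10 largest falls were Unc93a2 (-2.89, adjusted p = 5.38e-05), the cadherin gene Celsr2 (-2.67, adjusted p = 2.02e-05) and the MYC family gene Mycl (-2.58, adjusted p = 1.72e-04).

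The largest rise was that of Ppp1r3b (chr8:35375739-35388139), which encodes a subunit that brings protein phosphatase 1 to glycogen and so favours glycogen synthesis. Its level was 19.2, 6.98, 33.4 and 13.4 CPM at ZT8 and 753, 641, 525 and 469.6 CPM at ZT20. The groups lay far apart, the mean at ZT20 was 32.7-fold that at ZT8, and the difference was 5.13 ± 0.36 (adjusted p = 1.42e-05). Hephl1, a relative of the copper ferroxidase hephaestin, was at 3.496, 0.381, 7.997 and 1.59 CPM at ZT8 and 77.1, 105, 81.4 and 77.7 CPM at ZT20, a difference of 4.63 ± 0.45 (adjusted p = 7.46e-05). Angptl8, an insulin-induced secreted regulator of lipoprotein lipase, was at 27.8, 8.27, 37.98 and 17.4 CPM at ZT8 and 409, 436, 459 and 252 CPM at ZT20, a difference of 4.18 ± 0.38 (adjusted p = 5.33e-05). Replicate 4 had the lowest Angptl8 level of the ZT20 mice and replicate 2 the lowest of the ZT8 mice. The others of the 10 largest rises were Scd2 (3.82) and Acly (3.798) of fatty acid synthesis, the heat shock gene Hsph1 (3.42), the oxidative stress gene Osgin1 (3.397), the fructose transporter gene Slc2a5 (3.25), the clock output gene Nfil3 (3.24) and Mid1ip1 (3.13), whose product promotes the assembly of acetyl-CoA carboxylase.

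**Figure D1:**
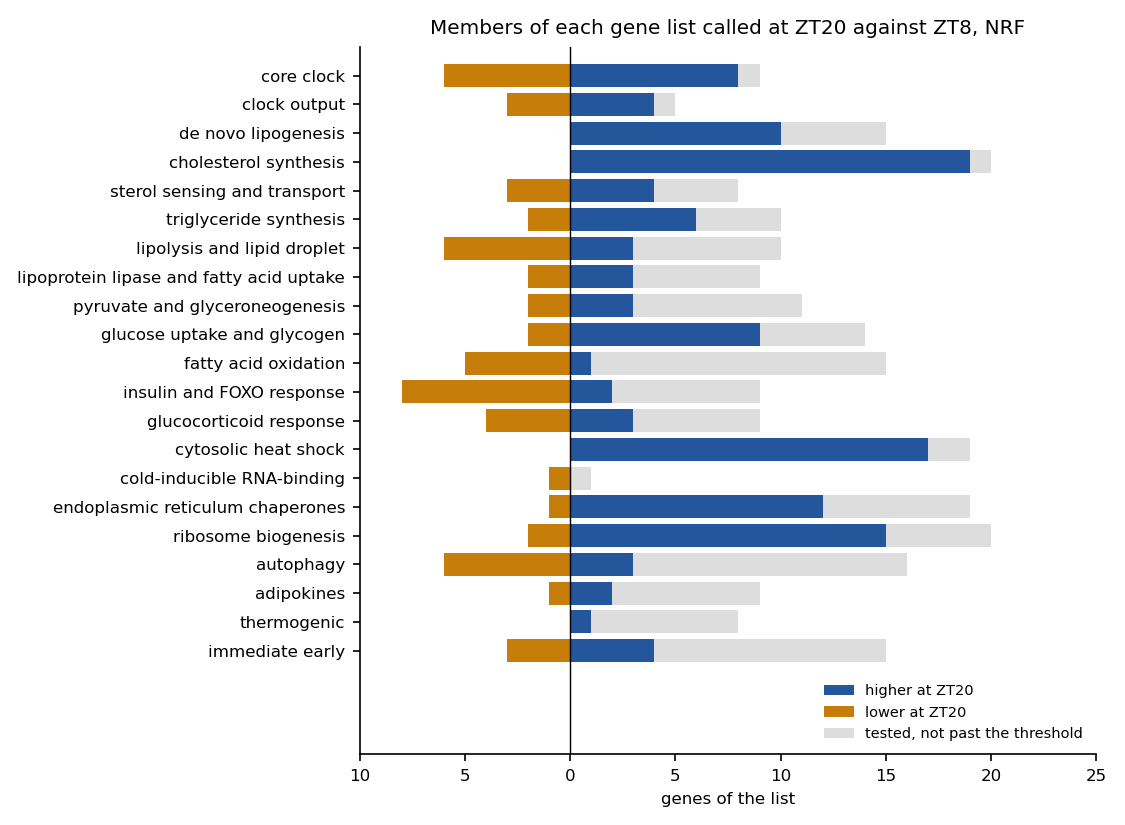
Number of genes of each list that were called higher at ZT20 (blue, to the right), called lower (orange, to the left) or tested without passing the threshold (grey, to the right); the axis counts genes. Cholesterol synthesis (19 of 20) and cytosolic heat shock (17 of 19) had called members in 1 direction, while the core clock had 8 higher and 6 lower genes. Of all genes tested, 20.8% were higher and 16.1% were lower.

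The core clock list had 15 genes, of which 8 were higher at ZT20, 6 were lower and Bhlhe41 did not pass the test, with a value of -0.34 (adjusted p = 0.315). Called genes were 36.8% of all genes tested. The genes of BMAL1, CLOCK and NPAS2 were on one side. Arntl, which encodes BMAL1, was at 3.61, 3.42, 2.31 and 3.67 CPM at ZT8 and 30.9, 36.3, 33.8 and 36.6 CPM at ZT20. No ZT8 mouse came near a ZT20 mouse, and the difference was 3.07 ± 0.12 (adjusted p = 4.97e-07). Its partner genes Clock and Npas2 rose by 1.15 and 2.01, and Npas2 was at 2.07, 1.27, 1.11 and 2.48 CPM at ZT8 and 9.42, 11.3, 9.002 and 9.44 CPM at ZT20. The REV-ERB repressor genes Nr1d1 and Nr1d2 were on the other side, with Nr1d2 at 115, 109, 151 and 115 CPM at ZT8 and 9.73, 5.79, 7.79 and 7.62 CPM at ZT20 and a difference of -3.83 ± 0.15 (adjusted p = 3.96e-07). The small repressor gene Ciart fell as well (-1.55 ± 0.30, adjusted p = 0.00295).

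The Period and Cryptochrome genes did not move as 1 group. Per1 was at 56.8, 59.9, 51.3 and 78.96 CPM at ZT8 and 22.8, 23.2, 33.6 and 33.1 CPM at ZT20 and Per3 at 85.2, 53.1, 113 and 50.6 CPM at ZT8 and 24.4, 17.2, 20.6 and 18.6 CPM at ZT20, both lower at ZT20 without overlap, with differences of -1.11 ± 0.16 (adjusted p = 7.11e-04) and -1.78 ± 0.23 (adjusted p = 3.51e-04). Per2, by contrast, was at 16.8, 13.3, 24.1 and 11.8 CPM at ZT8 and 48.97, 46.4, 45.9 and 35.7 CPM at ZT20 and was higher at ZT20 (1.41 ± 0.19, adjusted p = 4.33e-04). Both Cry genes were higher. Cry1 was at 6.83, 6.13, 9.62 and 7.79 CPM at ZT8 and 54.6, 65.3, 52.9 and 48 CPM at ZT20, a difference of 2.72 ± 0.13 (adjusted p = 1.67e-06), and Cry2 had a smaller one of 0.59 ± 0.12 (adjusted p = 0.00315). Rora, whose product activates Arntl, was lower (-0.62 ± 0.14, adjusted p = 0.0063). The rise of Bhlhe40 was called with all libraries (1.06, adjusted p = 0.0416). Its call was lost without each of 6 libraries in turn, among them replicate 4 of ZT8, with 0.89 (adjusted p = 0.107).

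Among 8 clock output genes, 4 were higher (2 without replicate 1 of ZT8 or replicate 1 of ZT20) and 3 were lower. Of all genes, 20.8% were higher and 16.1% were lower. The PAR bZIP activator genes Dbp, Tef and Hlf all fell. Dbp was at 156, 186, 228 and 143 CPM at ZT8 and 8.503, 6.09, 11.5 and 7.17 CPM at ZT20, with -4.27 ± 0.19 (adjusted p = 7.70e-07), while Tef (-1.25 ± 0.13) and Hlf (-0.41 ± 0.12) fell less. Nfil3 encodes the repressor that competes with these factors for D-boxes. It was at 3.68, 3.28, 3.27 and 4.59 CPM at ZT8 and 49.6, 44.1, 41.7 and 38.5 CPM at ZT20, with the groups far apart and 3.24 ± 0.11 (adjusted p = 2.80e-07). Nampt, the rate-limiting enzyme gene of NAD salvage, rose by 0.72. Usp2 (0.66, adjusted p = 0.0189) and the cell cycle kinase gene Wee1 (0.51, adjusted p = 0.0364) overlapped between the groups by replicate 3 of ZT8. Wee1 lost its call without each of 6 libraries in turn, among them replicate 4 of ZT8, with 0.50 (adjusted p = 0.0757). Usp2 and Hlf lost theirs without each of 3 libraries (adjusted p up to 0.0572 and 0.0619). Klf10 did not pass the test (-0.24, adjusted p = 0.424).

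**Figure D2:**
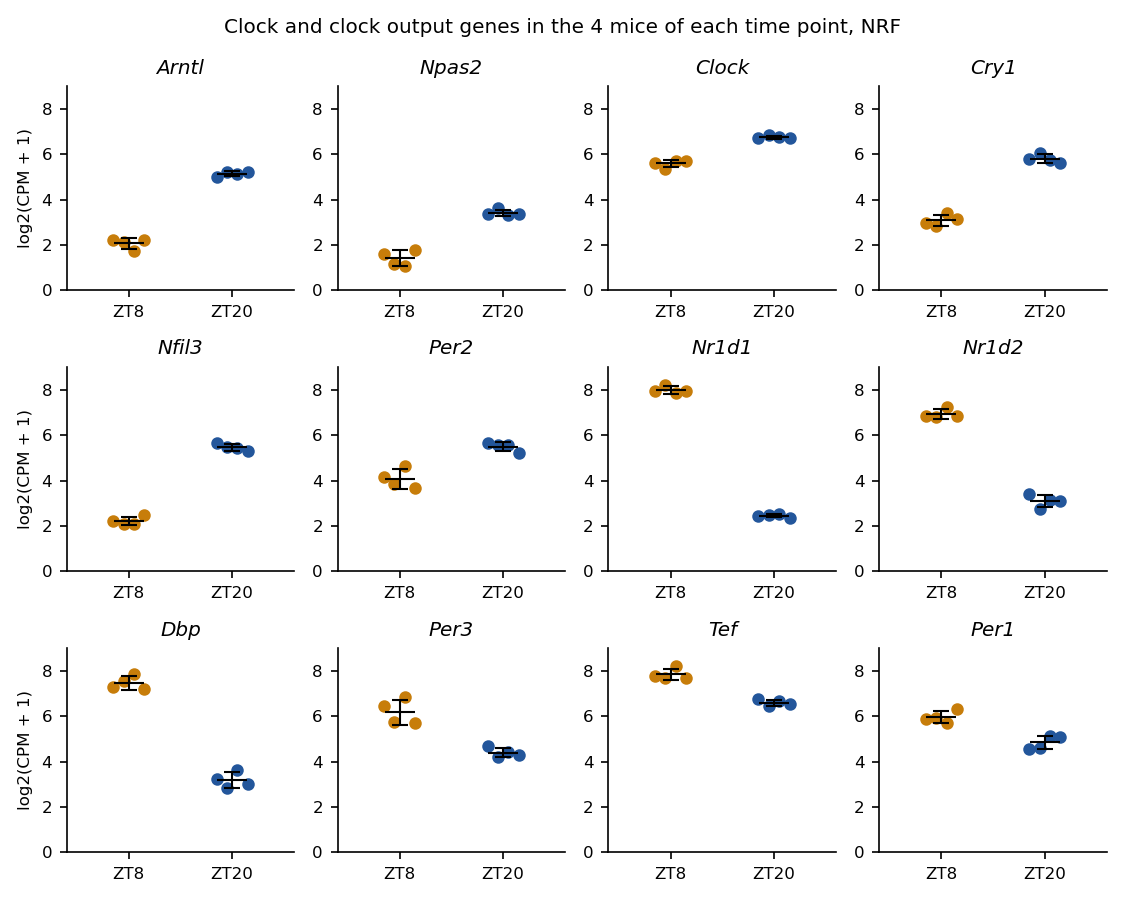
log2(CPM + 1) of 12 clock and clock output genes in each mouse at ZT8 (orange) and ZT20 (blue); horizontal bars are the mean and SD of 4 mice. The 12 genes were picked from the 2 lists for display, and in each of them the groups were separate. Arntl, Npas2, Clock, Cry1, Nfil3 and Per2 were higher at ZT20, and Nr1d1, Nr1d2, Dbp, Per3, Tef and Per1 were lower. In the full lists, 7 higher and 6 lower of 15 core clock genes had no overlap. Of 8 output genes, 2 higher and 3 lower had none, against 35.7% of all genes tested.

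Promoter sequences of 3 called clock and clock output genes are shown because they hold the letters through which the loop above is known to act. Windows of 300 bases, 250 before and 50 after the annotated start, came from RefSeq (GRCm38.p6) and are on the strand of the gene, with the match in capitals. Of the 15 core clock genes 12 had a window, and of the 8 output genes 6. Arntl (chr7:113207261-113207560, plus strand) holds a ROR element 30 bases after the start, Nfil3 (chr13:52980990-52981289, minus strand) holds it on the reverse strand 12 bases before the start, and Cry1 (chr10:85185005-85185304, minus strand) holds an E-box 60 bases before it.
Arntl: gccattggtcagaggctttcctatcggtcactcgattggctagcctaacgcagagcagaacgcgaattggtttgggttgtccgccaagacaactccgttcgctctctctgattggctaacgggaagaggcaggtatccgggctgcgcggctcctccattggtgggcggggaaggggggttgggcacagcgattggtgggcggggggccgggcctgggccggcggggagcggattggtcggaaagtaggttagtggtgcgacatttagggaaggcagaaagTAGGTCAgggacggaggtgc
Nfil3: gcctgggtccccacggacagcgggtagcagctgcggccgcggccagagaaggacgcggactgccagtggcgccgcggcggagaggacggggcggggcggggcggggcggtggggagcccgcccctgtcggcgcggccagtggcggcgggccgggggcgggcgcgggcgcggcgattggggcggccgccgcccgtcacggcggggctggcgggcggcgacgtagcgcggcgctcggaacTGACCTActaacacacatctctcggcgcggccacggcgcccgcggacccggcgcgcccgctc
Cry1: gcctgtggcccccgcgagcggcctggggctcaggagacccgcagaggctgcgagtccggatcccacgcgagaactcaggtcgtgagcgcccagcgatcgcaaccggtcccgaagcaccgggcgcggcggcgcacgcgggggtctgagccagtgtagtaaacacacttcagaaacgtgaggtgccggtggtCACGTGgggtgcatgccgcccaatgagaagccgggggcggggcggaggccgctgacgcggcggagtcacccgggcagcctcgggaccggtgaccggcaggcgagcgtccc
The searched letters were TAGGTCA for the ROR element, CACGTG for the E-box and TTATGTAA for the D-box, on both strands. A ROR element stood in the window of 1 of the 12 core clock genes and 1 of the 6 output genes, against 2.97% of the 27025 genes of the table. An E-box stood in 4 of the 12 core clock genes, namely Per1, Ciart, Cry1 and Bhlhe41, and among output genes in Tef, against 8.09% of all genes. The D-box was found in Per3 alone of these lists, against 1.11% of all genes. These E-box genes had differences of both signs, from -1.55 for Ciart to 2.72 for Cry1. A match is a description of the letters and not a measured binding site.

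The cytosolic heat shock list held chaperones and their partners in the cytosol and mitochondria. Of its 19 genes 17 were higher at ZT20 and 0 were lower in limma, against 20.8% and 16.1% of all genes. At an unadjusted p under 0.05, 0 were lower too, and the median difference was 1.12 against 0.015 over all genes. Hsph1, which encodes the HSP110 nucleotide exchange factor of HSP70, was at 12.98, 12.8, 22.2 and 14.8 CPM at ZT8 and 181, 187, 175 and 152 CPM at ZT20. Every ZT20 mouse was far above every ZT8 mouse, and the difference was 3.42 ± 0.16 (adjusted p = 1.01e-06). Hspa8, the constitutive HSP70, was at 509.7, 715, 472 and 799.9 CPM at ZT8 and 2639.5, 2703, 2860.1 and 2514 CPM at ZT20, with 2.13 ± 0.19 (adjusted p = 4.87e-05). The DNAJ co-chaperone gene Dnaja1 was at 126, 107, 159 and 127 CPM at ZT8 and 468, 489.7, 504 and 429 CPM at ZT20, with 1.87 ± 0.12 (adjusted p = 1.12e-05). Hspa4l (1.87 ± 0.17), the HSP90 partner gene Chordc1 (1.85 ± 0.12) and Hsp90aa1 (1.67 ± 0.14) rose by similar amounts. Hsf1, the transcription factor of the heat shock response, rose by 0.45. The stress-inducible HSP70 genes had smaller values. Hspa1b was at 10.95, 13.5, 8.72 and 14.2 CPM at ZT8 and 22.2, 17.9, 16.9 and 15.4 CPM at ZT20, with 0.58 ± 0.16 (adjusted p = 0.0146), and Hspa1a did not pass the test (0.48, adjusted p = 0.0993). These 2 genes are near-identical copies, and how the authors' counting divided their reads is uncertain. Bag3, an HSP70 partner, did not pass either (0.19, adjusted p = 0.227). Cirbp, which encodes an RNA-binding protein induced by mild cold, moved the other way. It was at 54.1, 73.3, 49.5 and 53.4 CPM at ZT8 and 16.2, 17.1, 21.9 and 24 CPM at ZT20 without overlap, a difference of -1.498 ± 0.15 (adjusted p = 8.90e-05), while Rbm3 of the same kind was at -0.21 (adjusted p = 0.0857) and passed without replicate 1 of ZT8 (-0.28, adjusted p = 0.0206). Body temperature was not part of these data.

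The promoters of Hsph1 (chr5:149636287-149636586, minus strand) and Dnaja1 (chr4:40722218-40722517, plus strand) are shown as the called heat shock members with the largest differences among those that hold the heat shock letters GAANNTTC, where N is any base. The match begins 41 bases after the start in Hsph1 and 124 bases before it in Dnaja1.
Hsph1: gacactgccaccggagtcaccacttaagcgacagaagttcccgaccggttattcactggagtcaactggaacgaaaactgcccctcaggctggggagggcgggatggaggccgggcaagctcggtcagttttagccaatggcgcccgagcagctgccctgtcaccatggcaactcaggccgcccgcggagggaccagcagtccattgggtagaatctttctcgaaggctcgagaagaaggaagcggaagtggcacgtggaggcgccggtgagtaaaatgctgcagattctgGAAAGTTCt
Dnaja1: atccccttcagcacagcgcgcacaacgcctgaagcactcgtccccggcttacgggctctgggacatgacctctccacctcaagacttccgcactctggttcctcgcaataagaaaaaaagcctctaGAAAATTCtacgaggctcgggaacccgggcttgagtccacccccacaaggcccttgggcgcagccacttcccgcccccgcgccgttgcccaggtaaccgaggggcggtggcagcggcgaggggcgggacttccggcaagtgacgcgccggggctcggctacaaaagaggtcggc
The letters are the same on both strands. They stood in 10 of the 15 heat shock genes that had a window, against 9.04% of the 27025 genes of the table. The 10 included Hspa1a and Bag3, which were not called.

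Of the 20 genes of the endoplasmic reticulum chaperone list, 12 were higher and Herpud1 was lower, against 20.8% and 16.1% of all genes. Hspa5, which encodes BiP, was at 228, 227, 234 and 259.6 CPM at ZT8 and 508, 600.1, 551 and 531 CPM at ZT20, with tight groups and 1.204 ± 0.10 (adjusted p = 2.72e-05). Manf (1.05 ± 0.10) and Sdf2l1 (1.02 ± 0.16) of the same compartment rose about as much, and the transcription factor gene Atf4 rose by 0.83. Herpud1, of protein degradation at this membrane, was at -0.35 (adjusted p = 0.0192) and did not pass without replicate 4 of ZT8, with -0.28 (adjusted p = 0.05). Among 22 ribosome biogenesis genes, 15 were higher and 2 were lower, against the same 20.8% and 16.1% of all genes. Rrp12 (1.29 ± 0.14), Bop1 (0.99 ± 0.12) and Nolc1 (0.86 ± 0.08) rose, with Rrp12 at 7.04, 5.75, 8.41 and 8.61 CPM at ZT8 and 16.7, 22.3, 21.9 and 17.6 CPM at ZT20. The 2 that fell were Dkc1 (-0.47, adjusted p = 0.00296) and Myc (-0.62, adjusted p = 0.00789), a transcriptional activator of this programme. Myc was at 14.3, 20.99, 14.2 and 20.2 CPM at ZT8 and 11.4, 11.4, 8.89 and 11.7 CPM at ZT20.

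Cholesterol synthesis had 19 of 20 genes higher at ZT20 and 0 lower in limma, against 20.8% and 16.1% of all genes. At an unadjusted p under 0.05, 0 of the 20 were lower too, and their median difference was 1.87. Tm7sf2 was the gene that did not pass (0.54, adjusted p = 0.353). Without replicate 4 of ZT8, 17 of the 20 were higher and 0 lower, against 18.2% and 12.9% of all genes. With total reads as the library size, 16 were higher and 0 lower, against 2073 and 3315 of all genes. Mvd, which makes isopentenyl diphosphate from mevalonate diphosphate, was at 12.7, 7.57, 24.6 and 10.3 CPM at ZT8 and 112, 132, 104 and 94.7 CPM at ZT20, with 3.03 ± 0.27 (adjusted p = 5.27e-05). Sqle, the squalene epoxidase gene, was at 11.6, 7.51, 33.8 and 8.71 CPM at ZT8 and 88.2, 103, 78.1 and 75.7 CPM at ZT20, with 2.65 ± 0.36 (adjusted p = 4.69e-04). Both had their highest ZT8 level in replicate 3 and no overlap with ZT20. Cyp51 (2.54 ± 0.34), Lss (2.44 ± 0.38), Idi1 (2.24 ± 0.31) and Sc5d (2.196 ± 0.20) rose similarly. Fdft1 (0.28, adjusted p = 0.0448) overlapped between groups. Its call was lost without each of 7 libraries in turn (adjusted p up to 0.11), among them replicate 4 of ZT8, with 0.30 (adjusted p = 0.0655). Fdps was listed at no more than 3.15 CPM, and reads shared with related copies of this gene may have been left out of its count. Of the 15 members with a promoter window, Acat2 and Hmgcs1 held the sterol regulatory letters CACCCCAC, against 3.30% of all 27025 genes. The window of Acat2 (chr17:12960676-12960975, minus strand), whose product condenses acetyl-CoA and which rose by 2.13, is shown as the called member with the larger difference of these, with the match 181 bases before the start.
Acat2: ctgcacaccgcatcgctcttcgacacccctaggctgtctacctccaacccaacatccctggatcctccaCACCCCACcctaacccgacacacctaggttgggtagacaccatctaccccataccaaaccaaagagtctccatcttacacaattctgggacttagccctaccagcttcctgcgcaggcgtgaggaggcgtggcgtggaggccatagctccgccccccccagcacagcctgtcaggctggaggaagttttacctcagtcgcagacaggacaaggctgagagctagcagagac
The genes of sterol sensing and transport were divided, with 4 of 11 tested genes higher and 3 lower, against 20.8% and 16.1% of all genes. With total reads as the library size, 4 were higher and 6 lower, against 2073 and 3315 of all genes. Insig1, whose product holds the SREBP precursor in the endoplasmic reticulum, was at 358, 83.2, 185 and 211 CPM at ZT8 and 838, 1051, 575 and 847 CPM at ZT20, with 2.13 ± 0.37 (adjusted p = 0.00161), and Srebf2, the SREBP2 gene, was higher too (0.54 ± 0.08, adjusted p = 4.88e-04). Lower were the sterol exporter gene Abcg1 (-1.08 ± 0.29, adjusted p = 0.0141), the liver X receptor gene Nr1h2 (-0.47, adjusted p = 0.00197) and Abca1, which was not called without replicate 4 of ZT8, with -0.31 (adjusted p = 0.079). Abcg1 was highest in replicate 2 of ZT8, the library with the most macrophage marker RNA.

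De novo lipogenesis had 10 of 15 tested genes higher and 0 lower in limma, against 20.8% and 16.1% of all genes. At an unadjusted p under 0.05, 0 of the 15 were lower too, and their median difference was 1.84. Without replicate 4 of ZT8, 7 of the 15 were higher and 0 lower, against 18.2% and 12.9% of all genes. Here the mice of ZT8 were far apart, while those of ZT20 were alike. Acly, which makes cytosolic acetyl-CoA from citrate, was at 1380.5, 154, 6511 and 321 CPM at ZT8 and 11194, 11832, 11876 and 10678 CPM at ZT20. Replicate 2 was at the bottom of the ZT8 group and replicate 3 came closest to ZT20, and the difference was 3.798 ± 0.93 (adjusted p = 0.00971). Fasn, the fatty acid synthase gene, was at 16887, 971, 32188 and 7125 CPM at ZT8 and 29213, 31259, 28701 and 23810 CPM at ZT20. Replicate 3 of ZT8 lay above all mice of ZT20, so that the groups overlapped and the difference of 1.84 ± 0.92 did not pass (adjusted p = 0.143). Without that library it was 2.52 and passed (adjusted p = 0.0335). The groups also overlapped, without a call, for Acaca (1.63, adjusted p = 0.0862), which encodes the acetyl-CoA carboxylase of fatty acid synthesis, and for the elongase gene Elovl6 (3.08, adjusted p = 0.0636), whose ZT8 levels were 732, 11.6, 1642 and 244 CPM. Without replicate 3 of ZT8 both passed, Acaca at 2.18 (adjusted p = 0.0151) and Elovl6 at 3.99 (adjusted p = 0.0132), and Elovl6 passed also without replicate 2, at 1.65 (adjusted p = 0.0304). In 13 of the 15 genes the highest ZT8 level was in replicate 3, and in 14 of the 15 the lowest was in replicate 2. This order was counted after the values were seen. The median SD of these 15 genes was 1.19 at ZT8 and 0.17 at ZT20 on log2(CPM + 1).

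Other lipogenic genes were separate between the groups. Scd2, a stearoyl-CoA desaturase gene, was at 132, 56.3, 596 and 83.2 CPM at ZT8 and 1932, 2308, 1760.2 and 1958 CPM at ZT20, with 3.82 ± 0.58 (adjusted p = 7.92e-04). Thrsp, a partner of Mid1ip1 and a marker of lipogenic tissue, was at 2070.3, 552, 3789.7 and 1369.9 CPM at ZT8 and 7500.2, 8137, 9428 and 7174 CPM at ZT20, with 2.36 ± 0.49 (adjusted p = 0.00437). Mlxipl, which encodes the glucose-sensing factor ChREBP, was at 100.2, 53.7, 175 and 51.1 CPM at ZT8 and 394, 319.6, 463 and 337 CPM at ZT20, with 2.15 ± 0.34 (adjusted p = 9.52e-04). Srebf1, which encodes the insulin-responsive factor SREBP-1, overlapped between groups at 513, 268, 769 and 341 CPM at ZT8 and 960.2, 766, 918 and 756 CPM at ZT20. Its difference of 0.95 (adjusted p = 0.0225) became 0.84 (adjusted p = 0.0636) without replicate 4 of ZT8, and the calls of Slc25a1 (1.34, adjusted p = 0.0871) and Me1 (2.12, adjusted p = 0.0627) were lost in the same way. Slc25a1 lost its call without each of 7 libraries in turn, and Srebf1 and Me1 without each of 3. The desaturase gene Scd1 could not be converted to reads and was not tested. Its deposited score was 135, 115, 140.4 and 133 at ZT8 and 141, 144, 139 and 142 at ZT20, on the authors' log-based scale.

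**Figure D3:**
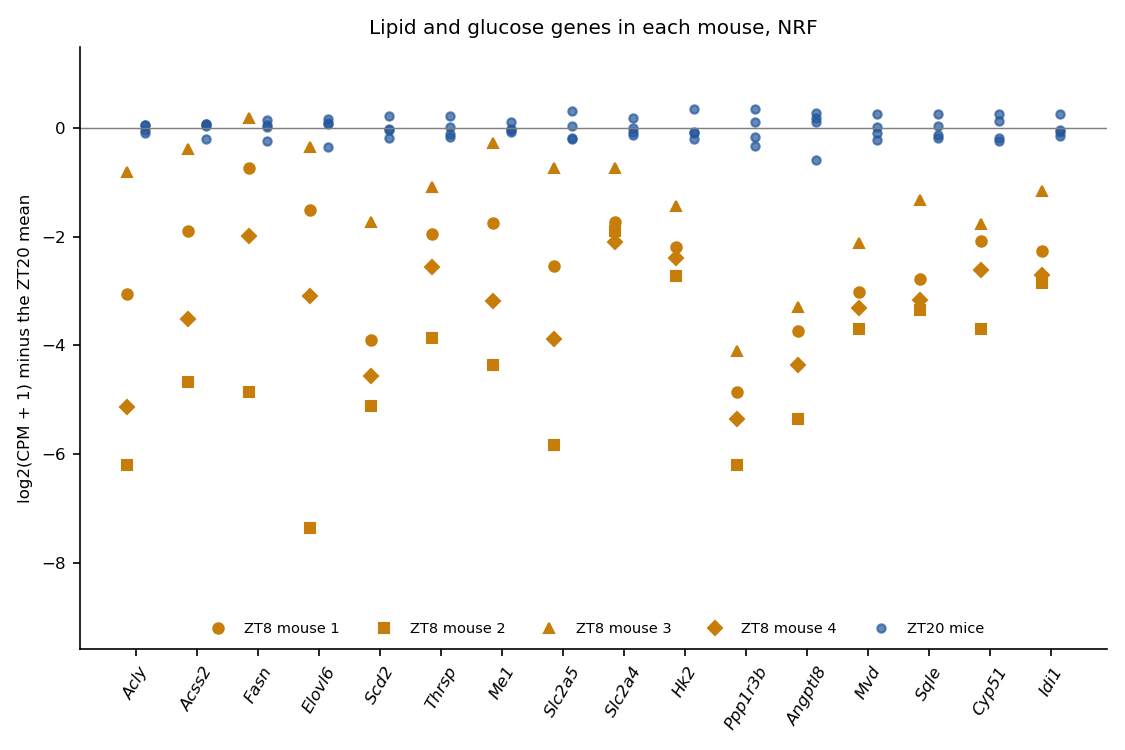
Level of 16 genes of fatty acid, glucose and cholesterol metabolism in each mouse, as log2(CPM + 1) minus the mean of the ZT20 mice. The 4 mice of ZT8 (orange, 1 symbol each) were spread over several log2 units in Acly, Fasn and Elovl6, with replicate 3 highest and replicate 2 lowest; the mice of ZT20 are in blue.

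Triglyceride synthesis had 6 of 12 genes higher and 2 lower, against 20.8% and 16.1% of all genes. The enzymes of the last step went apart. Dgat2 was at 1418, 548, 4279.7 and 931 CPM at ZT8 and 4331, 4815, 5448 and 4839 CPM at ZT20, with 1.87 ± 0.51 (adjusted p = 0.0164), whereas Dgat1, whose product catalyses the same reaction, was at 407, 342, 389.8 and 395 CPM at ZT8 and 243, 222, 229 and 225 CPM at ZT20, with -0.73 ± 0.09 (adjusted p = 2.57e-04). Agpat2 of the second acylation step rose by 1.43 and the phosphatidate phosphatase gene Lpin1 by 1.02. Gpat4 of the first step fell (-0.85 ± 0.09, adjusted p = 1.11e-04). Gpd1, which makes glycerol 3-phosphate, was called with all libraries (1.55, adjusted p = 0.0182) and not without replicate 4 of ZT8, with 1.44 (adjusted p = 0.05003).

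The list of lipolysis and lipid droplet genes had 3 of 16 members higher and 6 lower, against 20.8% and 16.1% of all genes. Adrb3, the β3-adrenergic receptor gene through which catecholamines start lipolysis in adipocytes, was at 548, 673, 644 and 472 CPM at ZT8 and 185, 78.3, 83.8 and 196 CPM at ZT20. All mice of ZT8 were above all mice of ZT20, and the difference was -2.21 ± 0.29 (adjusted p = 3.88e-04). Lipe, the hormone-sensitive lipase gene, was at 1382, 1676, 1933 and 1525 CPM at ZT8 and 715, 662, 958 and 754 CPM at ZT20, with -1.08 ± 0.17 (adjusted p = 9.16e-04). Pnpla2, the first lipase of the cascade, was at 2416, 3128, 2148 and 3078 CPM at ZT8 and 1860.1, 2102, 2182 and 2016 CPM at ZT20, which did not pass (-0.38, adjusted p = 0.145). G0s2 encodes the inhibitor of that lipase and was at 99.3, 129.6, 95.6 and 131 CPM at ZT8 and 474, 442, 384 and 237 CPM at ZT20, with 1.71 ± 0.21 (adjusted p = 2.28e-04). The lipase activator gene Abhd5 was also higher, by 0.48. Coat proteins of the droplet differed in direction. Plin2 was at 264, 272, 427 and 280.3 CPM at ZT8 and 1200.2, 1260.3, 1288 and 1250 CPM at ZT20, with 2.03 ± 0.16 (adjusted p = 2.39e-05), while Plin1 (-0.50, adjusted p = 0.0238) and Plin4 (-1.04, adjusted p = 0.00157) were lower. Plin1 lost its call without each of 3 libraries in turn (adjusted p = 0.0626 to 0.077). Pde3b, the phosphodiesterase through which insulin lowers cAMP, fell as well (-1.06 ± 0.11, adjusted p = 9.11e-05), and so did the glycerol channel gene Aqp7 (-0.75 ± 0.12, adjusted p = 0.00111).

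Among 11 genes of lipoprotein lipase and fatty acid uptake, 3 were higher and 2 were lower, near the 36.8% called among all genes. Lpl itself was at 7085, 6636, 10097 and 9036 CPM at ZT8 and 6736, 6932, 8021 and 8577 CPM at ZT20, overlapping, with -0.10 (adjusted p = 0.818). Its inhibitor gene Angptl4 was at 316, 358, 184 and 383 CPM at ZT8 and 166, 255, 231 and 227 CPM at ZT20, with -0.46 (adjusted p = 0.13), and passed without replicate 3 of ZT8 (-0.69, adjusted p = 0.00431). The fatty acid transporter gene Slc27a1 was at 1924, 1673, 1159 and 1848 CPM at ZT8 and 811, 695, 782 and 679 CPM at ZT20, with -1.13 ± 0.18 (adjusted p = 0.00104).

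Of 16 glucose uptake and glycogen genes, 9 were higher at ZT20 and 2 were lower, against 20.8% and 16.1% of all genes. With total reads as the library size, 9 were higher and 4 lower, against 2073 and 3315 of all genes. Slc2a4, the insulin-responsive glucose transporter gene, was at 193, 173, 387 and 150.4 CPM at ZT8 and 614, 641, 731 and 589 CPM at ZT20, with 1.605 ± 0.25 (adjusted p = 9.38e-04). Hk2, a hexokinase gene, was at 90.7, 62.4, 153 and 79.2 CPM at ZT8 and 397, 393, 534 and 362 CPM at ZT20, with 2.18 ± 0.24 (adjusted p = 1.23e-04). Of the glycogen genes, Gys2 (1.85 ± 0.39, adjusted p = 0.00488), Gbe1 (1.601, adjusted p = 0.012) and the targeting subunit gene Ppp1r3c (1.72 ± 0.17, adjusted p = 8.21e-05) rose with Ppp1r3b, and the phosphorylase gene Pygb fell (-0.44, adjusted p = 0.0162). Slc2a5 was at 14.3, 0.55, 52.9 and 5.04 CPM at ZT8 and 90.2, 77.8, 111 and 76.6 CPM at ZT20, highest in replicate 3 and lowest in replicate 2 among the ZT8 mice. Txnip, which restrains glucose uptake, was at 1336, 1692, 1017 and 1692 CPM at ZT8 and 509, 457, 647 and 503 CPM at ZT20, with -1.42 ± 0.19 (adjusted p = 3.92e-04). In the pyruvate and glyceroneogenesis list, 3 of 13 genes were higher and 2 were lower (4 without replicate 3 of ZT8), a called share near the 36.8% of all genes. Mpc1 (1.62, adjusted p = 0.00686), of the mitochondrial pyruvate carrier, and Ldha (0.96, adjusted p = 0.00653) rose, while Pdk2, which inhibits pyruvate dehydrogenase, fell with Pck1 (-0.76, adjusted p = 0.00649). Pdk4 of the same family was at 61.3, 53.7, 26.5 and 106 CPM at ZT8 and 46.5, 42, 30.3 and 47.3 CPM at ZT20, with -0.43 (adjusted p = 0.347), and passed without replicate 3 of ZT8 (-0.77, adjusted p = 0.0211).

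Fatty acid oxidation had 1 of 20 tested genes higher and 5 lower, and 14 did not pass. This called share is near the 36.8% of all genes. The called lower members included the receptor gene Ppara (-1.08 ± 0.20, adjusted p = 0.00224), the entry enzyme gene Cpt1a (-0.86 ± 0.11, adjusted p = 3.82e-04), the peroxisomal gene Ehhadh (-0.70, adjusted p = 0.00314) and Acaa2 (-0.31, adjusted p = 0.0238). The call of Acaa2 was lost without replicate 4 of ZT8, with -0.26 (adjusted p = 0.064). Ucp3, a mitochondrial carrier, was the member that rose, at 51.2, 36.2, 40.7 and 47.2 CPM at ZT8 and 118, 110.1, 149.9 and 108 CPM at ZT20, with 1.45 ± 0.13 (adjusted p = 5.36e-05).

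Genes of the insulin and FOXO response had 8 of 17 members lower and 2 higher, against 16.1% and 20.8% of all genes. Irs2, an adaptor of the insulin receptor, was at 66.9, 82.7, 52.7 and 105 CPM at ZT8 and 15.01, 11.8, 20.2 and 16.1 CPM at ZT20, with -2.19 ± 0.21 (adjusted p = 6.11e-05). Klf15 (-0.99 ± 0.10, adjusted p = 9.90e-05), the ubiquitin ligase gene Fbxo32 (-1.31 ± 0.23, adjusted p = 0.00165) and Foxo3 (-0.50 ± 0.08, adjusted p = 8.16e-04) were lower as well. The repressor gene Bcl6 was higher, at 17.5, 11.6, 17.2 and 18.8 CPM at ZT8 and 35.2, 62.5, 97.9 and 116 CPM at ZT20, with 2.08 ± 0.32 (adjusted p = 8.38e-04), and the phosphoinositide 3-kinase subunit gene Pik3r1 rose by 1.07. Of 13 tested glucocorticoid response genes, 3 were higher and 4 were lower, against 20.8% and 16.1% of all genes (4 and 2 without replicate 4 of ZT8, and 2 lower without replicate 4 of ZT20). Tsc22d3 (0.88 ± 0.15, adjusted p = 0.00158), Fkbp5 (0.77, adjusted p = 0.0146) and Hsd11b1 (0.95 ± 0.17, adjusted p = 0.00185), the last of which regenerates active glucocorticoid, were higher, and Klf9 (-0.65 ± 0.11, adjusted p = 0.0017) and Ddit4 (-1.19, adjusted p = 0.0121) were among the lower ones, together with Sgk1 (-0.50, adjusted p = 0.0507 without replicate 4 of ZT8) and Zbtb16 (-0.61, adjusted p = 0.0523 without it), whose calls were lost without that library. In the autophagy list, 3 of 22 genes were higher and 6 were lower, against 4 lower without replicate 4 of ZT8, and 2 higher and 8 lower with total reads as the library size. The called share is near the 36.8% of all genes. Bnip3 was at 321, 412, 267 and 458 CPM at ZT8 and 171, 193, 209.6 and 197 CPM at ZT20, with -0.89 ± 0.16 (adjusted p = 0.00211), and Gabarapl1 also fell (-0.68, adjusted p = 0.00854), while Atg5 rose (0.53, adjusted p = 0.0018) and Atg7 fell (-0.47, adjusted p = 0.00318).

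Of 10 adipokine genes, 2 were higher, Lep and Apln, and 1 was lower, a called share near the 36.8% of all genes. Without replicate 3 of ZT8, 4 were higher, and without replicate 1 of ZT8 or replicate 3 of ZT20, 2 were lower. Lep, which encodes the satiety hormone leptin, was at 209, 158, 393 and 146 CPM at ZT8 and 607, 1322, 1533 and 1076 CPM at ZT20. Replicate 3 had the highest Lep level of the ZT8 mice and stayed below all ZT20 mice, and the difference was 2.36 ± 0.34 (adjusted p = 6.53e-04). Apln, which encodes apelin, was at 7.67, 4.23, 16.8 and 7.15 CPM at ZT8 and 65, 48.4, 39.5 and 44.2 CPM at ZT20, with 2.46 ± 0.31 (adjusted p = 2.83e-04). Adipoq, the adiponectin gene, was at 2584, 3717, 3126 and 3612 CPM at ZT8 and 2377, 2514, 3262 and 2984 CPM at ZT20, with -0.22 (adjusted p = 0.447). Of the 8 thermogenic genes, only the channel gene Kcnk3 was called, at 0.69 (adjusted p = 0.0069), against 36.8% of all genes. Without replicate 4 of ZT8, 3 were higher, against 18.2% of all genes. The deiodinase gene Dio2 was then at 0.98 (adjusted p = 0.0175) and the cytochrome c oxidase subunit gene Cox8b at 0.45 (adjusted p = 0.0349). With all libraries these were at 0.64 (adjusted p = 0.167) and 0.24 (adjusted p = 0.371). Ucp1 was at 14.01, 1.86, 9.08 and 47.5 CPM at ZT8 and 0.333, 1.31, 6.36 and 2.82 CPM at ZT20, highest in replicate 4 of ZT8, the library with muscle RNA, and did not pass (-1.98, adjusted p = 0.0643). It was called lower without replicate 2 of ZT8 (-2.67, adjusted p = 0.00877) or replicate 3 of ZT20 (-2.40, adjusted p = 0.0445). Of 18 immediate early genes, 4 were higher and 3 were lower (2 and 4 with total reads as the library size). The called share is again near the 36.8% of all genes. The higher ones fell to 2 without replicate 1 of ZT8 or replicate 1, 2 or 3 of ZT20, and the lower ones to 1 without replicate 1 of ZT20. Fosl2 was at 31.9, 31.3, 37.8 and 35.8 CPM at ZT8 and 106, 102, 109 and 103 CPM at ZT20, with 1.59 ± 0.08 (adjusted p = 1.67e-06), and the mRNA decay factor gene Zfp36 was lower, at 30.6, 55.3, 39.5 and 49.7 CPM at ZT8 and 22.2, 23.1, 25.2 and 23.4 CPM at ZT20, with -0.84 ± 0.16 (adjusted p = 0.00258).

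To see the same genes in other mice, ZT16 was compared with ZT4, which are also feeding and fasting time points of NRF 12 h apart and hold none of the 8 libraries above. There, 1482 of 14152 genes (10.5%) were higher at ZT16 and 1357 (9.59%) were lower, a split that became 1139 higher and 1914 lower with total reads as the library size. Of the genes called higher at ZT20, 2937 were tested, and 758 of them (25.8%, and 51.1% of those called higher at ZT16) were called higher at ZT16 and 82 lower. Of those called lower at ZT20, 2244 were tested, and 524 (23.4%, and 38.6% of those called lower at ZT16) were called lower at ZT16 and 72 higher. By sign alone, 71.7% and 74.8% went the same way, and the share over all genes tested was not computed.

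Differences between gene groups in the ZT16 comparison were not tested. The skeletal muscle markers summed to 258.1, 35.3, 151 and 149.7 CPM in the libraries of ZT16 and to 29.6, 23.8, 60.2 and 35.8 CPM in those of ZT4. The part of this muscle RNA in the comparison was not tested. Over all genes, 10.5% were higher at ZT16 and 9.59% were lower. Cytosolic heat shock had 13 of 19 genes called higher and 0 lower, with a median difference of 0.60, with Hsph1 at 2.35 (adjusted p = 4.05e-04) and Hspa8 at 1.43 (adjusted p = 9.46e-04). Here the inducible Hspa1a was called, at 1.62 (adjusted p = 2.52e-04). Pck1 (-2.78, adjusted p = 0.00528), Ppp1r3b (3.899, adjusted p = 0.00197), Hk2 (2.15, adjusted p = 0.00196), Lep (1.61, adjusted p = 0.00123) and Cirbp (-1.38, adjusted p = 9.99e-04) kept their direction and were called. Cholesterol synthesis had 7 of 19 genes called higher and a median difference of 0.73, and Acly (1.203, adjusted p = 0.315) and Scd2 (1.43, adjusted p = 0.131) did not pass. Several clock genes turned at these hours, which lie earlier in the feeding and fasting windows than ZT20 and ZT8. Arntl was -1.39 and Npas2 -2.92, both called lower at ZT16. The mean Arntl level under NRF was 24.6 CPM at ZT4, 3.26 CPM at ZT8, 10.4 CPM at ZT16 and 34.4 CPM at ZT20. Dbp (2.15, adjusted p = 8.80e-04), Tef (2.397, adjusted p = 1.47e-05), Per1 (1.39, adjusted p = 0.00522) and Per3 (2.44, adjusted p = 3.14e-06) were called higher at ZT16, although they were lower at ZT20 than at ZT8. Nr1d1 was lower in both comparisons (-3.13, adjusted p = 3.08e-06).

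**Figure D4:**
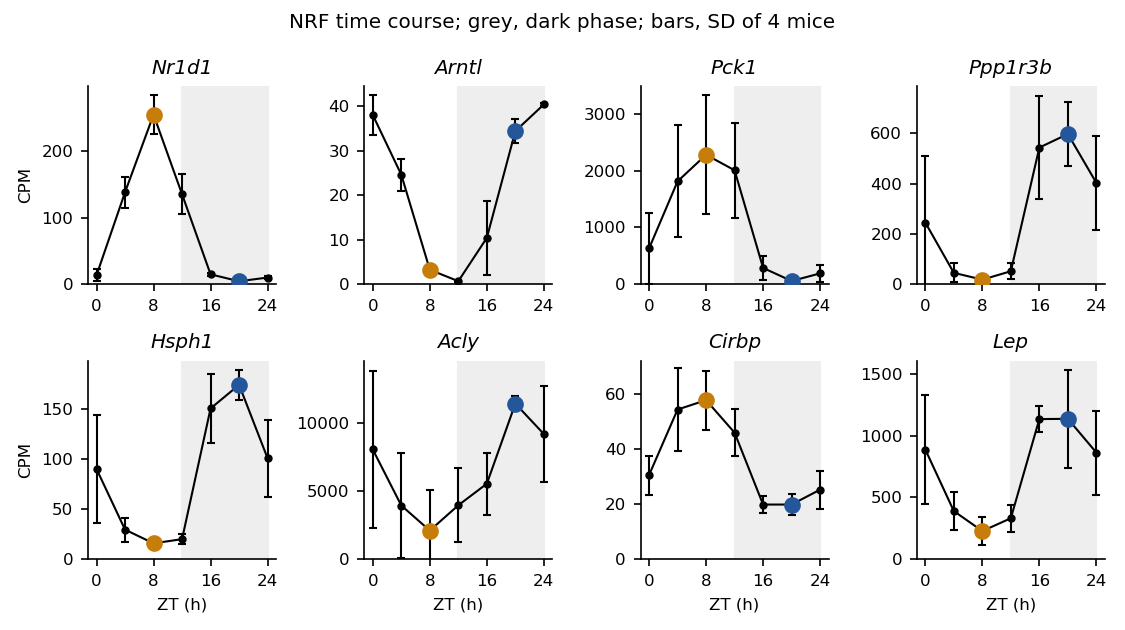
Mean CPM of 8 genes at the 7 time points of NRF, with the SD of 4 mice as bars, the dark phase in grey, ZT8 in orange and ZT20 in blue. Nr1d1, Pck1 and Cirbp had their highest mean of the 7 time points at ZT8, and Ppp1r3b, Hsph1 and Acly had it at ZT20.

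Over the 7 time points of NRF, the mean Nr1d1 level ran from 4.48 CPM at ZT20 to 254 CPM at ZT8, and 135 ± 30.1 CPM (SD, n = 4) was measured at ZT12. Arntl reached its lowest mean at ZT12, with 0.689 ± 0.109 CPM, and its highest at ZT24, with 40.4 ± 0.388 CPM. Pck1 fell from 2005 ± 838 CPM at ZT12 to 287 ± 219 CPM at ZT16, and Hsph1 rose from 19.9 ± 5.14 CPM to 150.2 ± 34.6 CPM between the same time points. Acly, in contrast, was at 3946 ± 2704 CPM at ZT12 and 5528 ± 2265 CPM at ZT16, with wide SDs, and had its highest mean at ZT20, with 11400 ± 571 CPM. These levels are given without a test.

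Under DRF the same hours fall on the opposite feeding state, since ZT8 lies in the feeding window and ZT20 in the fasting window. Of the genes with the largest rises and falls, 19 were set beside their DRF values, with 20 of the called clock and clock output genes, 35 genes in all. All 35 were chosen by their NRF difference or call, which is also part of the interaction, so that the DRF values are the new measurement and nothing is read from how many interactions passed. Over all 14324 genes tested, the difference of NRF and DRF in ZT20 minus ZT8 (the interaction) passed for 4194 genes (29.3%). Of the 19 genes, 16 had the opposite sign under DRF, and 9 of these 16 passed the limma test within DRF. The other 7, Acly, Scd2, Slc2a5, Hephl1, Hsph1, Mycl and Celsr2, did not pass there. Within DRF, 5.33% of all genes passed. Of the 5188 genes called under NRF and tested in both regimens, 70.4% had the opposite sign under DRF and 9.87% had it and passed there. Over all 14047 genes tested in both regimens, these shares were 58.55% and 4.78%. The 3 of the 19 with the same sign were Nr1d1, Nr1d2 and Dbp, and the last 2 of these passed within DRF. Ppp1r3b was -3.05 ± 0.40 under DRF, an interaction of 8.18 ± 0.59 (adjusted p = 1.58e-07). Pck1 was 4.06 ± 0.60 under DRF, an interaction of -9.24 ± 0.76 (adjusted p = 5.74e-07). Angptl8 (-1.996 ± 0.40) and Mid1ip1 (-1.91 ± 0.28) were likewise reversed and passed within DRF.

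The 20 of the called clock and clock output genes were set beside DRF in the same way. Nr1d1 was -0.57 ± 0.18 under DRF against -5.54 ± 0.09 under NRF, an interaction of -4.97 ± 0.21 (adjusted p = 1.41e-09). Arntl was -0.36 ± 0.16, an interaction of 3.43 ± 0.21 (adjusted p = 3.44e-08), and Dbp was -0.80 ± 0.13, an interaction of -3.47 ± 0.24 (adjusted p = 1.33e-07). Cry1 was 0.14 ± 0.13, an interaction of 2.58 ± 0.20 (adjusted p = 2.57e-07). Of these 4 DRF differences, that of Dbp passed within DRF. Of these 20 clock and output genes, 9 had the opposite sign under DRF, and of these 9 Nfil3 passed within DRF and the other 8 did not. Of the 11 with the same sign, 4 passed within DRF, namely Nr1d2, Dbp, Ciart and Hlf. The interaction passed for 15 of the 20, against 29.3% of all genes. As the 20 were chosen by their NRF call, no such count among them is read as a result. The interaction did not pass for Ciart, Cry2, Hlf, Nampt and Wee1. Replicate 1 of ZT8 under DRF stood apart, with a library size in the values of 1.36 times its reads on genes, the highest of the 56 libraries. Without it the interaction passed for 17 of the 20, Cry2 (adjusted p = 0.00344) and Hlf (adjusted p = 0.0285) included, and the DRF difference of Cry2 turned from 0.067 to -0.089. Hsph1 was -0.08 ± 0.22 under DRF, near 0, with an interaction of 3.503 ± 0.29 (adjusted p = 5.66e-07).

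**Figure D5:**
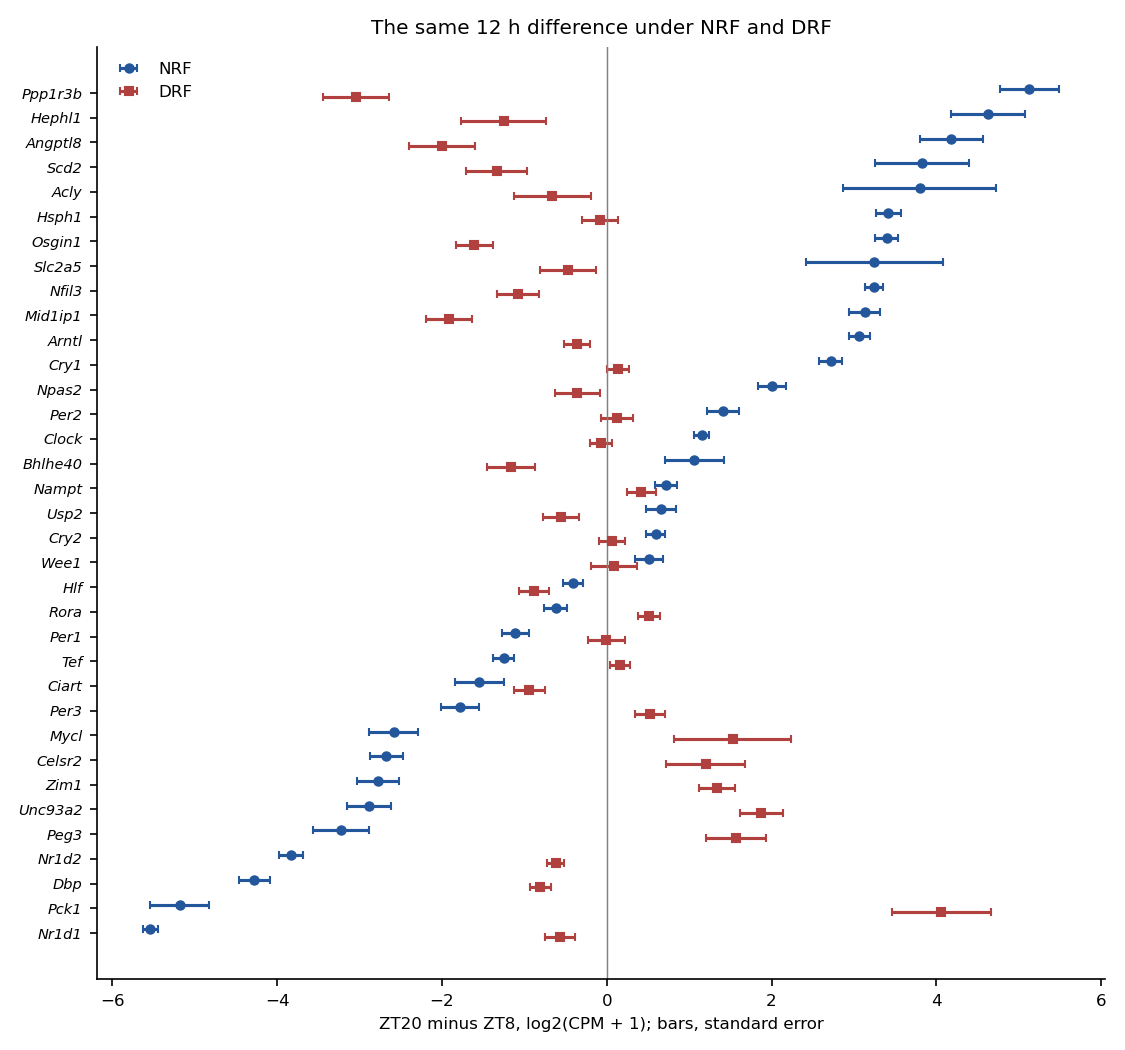
Difference of ZT20 minus ZT8 in log2(CPM + 1) for 35 genes under NRF (blue circles) and DRF (red squares), with standard errors as bars. The DRF value of Pck1 was positive and those of Ppp1r3b and Angptl8 negative, opposite to NRF, while Nr1d1, Dbp and Nr1d2 were negative under both regimens.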

How the data were processed

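VAT RNA was sequenced by the authors, who per the labels used 4 mice at each of 7 time points under 2 regimens. Regimen, time point and replicate number came from the sample titles. The submitters' processing notes name HISAT2 2.0.5, featureCounts 1.5.0-p3 and mm10, and their order and settings are not given in the sources used here. The authors deposited 1 table of a score per gene and library, which they named TPM and had made, judged from the numbers themselves, as log2(CPM + 1) divided by exon length and rescaled within each library. Reads were recovered from the steps between low values with exon lengths of the GENCODE M21 annotation, and of the 1262086 values up to 10000 reads, 99.99% came within 0.02 of an integer. For 881 of the 25939 genes the length was itself taken from the values, 3 abundant genes (Car3, Fasn and mt-Co1) could not be tested for whole numbers, and Scd1 was left out. Symbols were paired with 25926 genes. Reads were then divided by the library size in the values, which was 1.10 to 1.20 times the reads on genes at ZT8 and 1.03 to 1.08 times at ZT20.

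Genes with a mean of at least 1 CPM were fitted with limma 3.58.1 in R 4.3.3 on log2(CPM + 1) with an intensity trend, with the groups of each comparison alone in the fit. Tests were two-sided with Benjamini-Hochberg adjustment over all genes tested. A pseudocount of 1 understates the change of low genes. The plan assumed TPM values, which these are not, and log2(CPM + 1) took their place. Intervals were not given, and depth bears on counting error only. The genes named were the list members and the 10 largest rises and 10 largest falls among protein-coding genes with a mean of at least 5 CPM that were called with and without ZT8 replicate 4 and did not overlap. Within a list, the largest called members and textbook members were named. Some genes that met these rules are not reported here. The members and lists were chosen with earlier results of these data known. Count steps and fits were tested on simulated data. Alternatives covered library scaling, pseudocount, filter, voom weights, all libraries in 1 fit, a block for replicate number and leaving out single libraries. The numbers of the replicates name different mice. Gene positions are those of GRCm38, and tables were made with Python 3.11.15, numpy 2.4.6 and pandas 2.3.3.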

Additional observations from a re-analysis of the deposited data

Results flagged for a closer look

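Of 318 sets of 4 mice examined with Dixon's test, 21 had 1 mouse far from the other 3, and chance alone flags about 1 in 20 such sets. At ZT8, replicate 3 stood apart in 7 genes, with 2.31 CPM of Arntl, 151 CPM of Nr1d2, 19.8 CPM of Usp2, 10.4 CPM of the sterol enzyme gene Hsd17b7, 427 CPM of Plin2, 32.1 CPM of Bop1 and 47.9 CPM of Peg3. Replicate 2 of ZT8 stood apart with 16.7 CPM of Ppp1r3c, and replicate 4 with the skeletal muscle marker sum of 679.7 CPM. At ZT20, replicate 4 was low with 16.6 CPM of Usp2, 22.8 CPM of Klf10, 188 CPM of Abhd5 and 19.2 CPM of Fkbp5. Replicate 3 was low with 1164 CPM of Acss2, 1640.0 CPM of Elovl6 and 8.89 CPM of Myc. Replicate 1 had 732 CPM of Plin4, 9.86 CPM of Hspa1a and the lowest mesothelium marker sum of its group, 401 CPM. Replicate 2 of ZT20 had 226 CPM of Lss and the most reads of its group, 4.097e+07 on genes.

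For 30 of the 35 genes set beside DRF, the difference of ZT20 minus ZT8 differed between the regimens by the limma interaction test (adjusted p under 0.05), against 29.3% of all genes. All 35 were chosen by their NRF difference, which is part of this test, so that their share is not a result. The values that follow are the NRF difference less the DRF difference on log2(CPM + 1). Among metabolic and stress genes they were 8.18 for Ppp1r3b, 6.18 for Angptl8, 5.88 for Hephl1, 5.16 for Scd2, 5.04 for Mid1ip1, 5.00 for Osgin1, 4.46 for Acly, 3.71 for Slc2a5 and 3.50 for Hsph1. They were negative for Pck1 at -9.24, Peg3 at -4.80, Unc93a2 at -4.76, Mycl at -4.11, Zim1 at -4.11 and Celsr2 at -3.88. Among clock and clock output genes they were 4.32 for Nfil3, 3.43 for Arntl, 2.58 for Cry1, 2.37 for Npas2, 2.23 for Bhlhe40, 1.29 for Per2, 1.22 for Clock and 1.22 for Usp2. Negative values were -4.97 for Nr1d1, -3.47 for Dbp, -3.21 for Nr1d2, -2.31 for Per3, -1.41 for Tef, -1.13 for Rora and -1.10 for Per1.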

How the results depend on the processing

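Of the 147 genes named, 130 were called, 0 of these reversed in any alternative, and 102 passed the threshold in all of them. Of the called genes, 17 lost the call without at least 1 library (adjusted p up to 0.11), namely Bhlhe40, Hlf, Wee1, Usp2, Srebf1, Slc25a1, Me1, Fdft1, Abca1, Gpd1, Plin1, Pygb, Herpud1, Junb, Acaa2, Sgk1 and Zbtb16. Fdft1 and Slc25a1 lost it without each of 7 libraries, and Bhlhe40 and Wee1 without each of 6. For Abca1, Acaa2, Sgk1 and Zbtb16 there were 4 such libraries, and for Hlf, Usp2, Srebf1, Me1, Plin1 and Herpud1 there were 3. At an adjusted p under 0.01, the counts fell to 1775 higher and 1225 lower for ZT20 against ZT8, 652 and 428 for ZT16 against ZT4, and 2614 for the interaction. With each replicate left out in turn, ZT20 against ZT8 gave 2212 to 3342 higher and 1650 to 2686 lower genes, and the interaction passed for 3556 to 5117 genes. ZT16 against ZT4 gave 974 to 1447 higher and 761 to 1320 lower genes. The higher genes were fewest without replicate 2 of ZT16 (974), and the lower genes without replicate 4 (761), 1 (778) or 2 (828) of ZT16 or replicate 4 of ZT4 (888). Signs of 4 uncalled genes turned. Without replicate 4 of ZT20, Klf10 was 0.021 (-0.35 without replicate 3), and without replicate 3 of ZT8, Lpl was 0.0021 (-0.20 without replicate 2). Without replicates 2 and 4 of ZT8, chosen after seeing the data, Tm7sf2 was -0.072 and Pdk4 was 0.019. The replicate numbers name different mice, and deviations of same-numbered mice of ZT8 and ZT20 correlated at 0.29, -0.01, 0.03 and 0.04, with not every mouse closest to its own number. As a block, the replicate number gave 2800 higher and 2118 lower genes for ZT20 against ZT8, 1662 and 1535 for ZT16 against ZT4, and 4680 for the interaction. How far depth limits low genes was not tested.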
